A study of Mus musculus with 4 samples.

Results

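The genes described here are 39 genes of DNA replication and the G1/S transition, picked by name from the 55367 gene names of a count table of sorted mouse tumour endothelial cells. They cover the replicative helicase, the factors that load and fire it, the sliding clamp and its loader, the replicative polymerases and primase, lagging strand enzymes, histone and nucleotide supply, and 3 regulators of S phase entry. All 39 were in the table, and all 39 were among the 16945 genes with enough reads to be tested. The cells came from subcutaneous KPC tumours, grown from a mouse pancreatic cancer line, in C57BL/6 mice. The control group was given a control Rat IgG and the other group an anti-CD93 antibody, in both cases by intraperitoneal injection 48 hours before the tumour was digested with Liberase and CD31+CD45- cells were sorted. CD93 is a transmembrane lectin of endothelium. There were 2 libraries per group. The sources used here do not give the mice's age or sex, or say whether a library stands for 1 mouse or a pool, so any p-value reflects only the spread between these libraries.

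Before a cell copies its DNA, the origin recognition complex, CDC6 and CDT1 load rings of MCM2 to MCM7 onto origins. At the start of S phase CDC45 and the 4-subunit GINS complex join the ring and turn it into the working helicase. Cyclin E with its kinase and transcription factors of the E2F family promote entry into S phase, and E2F factors switch on many of the genes listed here. In adult vessels most endothelial cells are out of cycle, while in growing tumours a part of them divides, so the RNA of these genes is widely read as a sign of proliferation. In sorted bulk RNA, a smaller number of cycling cells and less RNA per cycling cell cannot be told apart.

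The libraries held 9364294 to 17813993 assigned reads, and control IgG replicate 2, the shallowest, stood apart: it correlated with the others at r = 0.945 to 0.947 (log2 CPM across genes, which are not independent replicates), against 0.977 to 0.983 among the other 3. Olfactory and vomeronasal receptor genes, which endothelium does not use, summed to 360.4 CPM (counts scaled to TMM-adjusted library size) in that library and to 52.4 to 56.6 CPM in the others. All 12 endothelial markers were detected, with a summed level of 9325 to 11660 CPM. Leukocyte markers summed to 17.95 to 34.3 CPM over 10 genes, and none of the 10 was at 0 in all libraries; Ptprc, which encodes CD45, was at 2.37 and 4.71 CPM in the controls and 5.08 and 2.33 CPM after anti-CD93. Tumour epithelial markers were abundant: their 10 genes summed to 1746 and 2533 CPM in the control libraries, replicate 1 first, and to 2449 and 2053 CPM after anti-CD93. Per length, the keratin gene Krt8 was at 315, 478, 437 and 364 RPKM (CPM divided by exonic length in kilobases) in those 4 libraries, and the sort marker Pecam1 at 271, 301, 267 and 267 RPKM. Krt8 overlapped between the groups, but 3 of the 10 tumour markers (Epcam, Cdh1 and Ocln) had both anti-CD93 libraries above both controls (20.1% of all genes). For 0 of the 10 both anti-CD93 libraries lay below both controls (19.7% of all genes). Pericyte and fibroblast markers, 9 genes, summed to 1637 to 2216 CPM. All 4 marker lists were at their highest in control IgG replicate 2. How much of the replication RNA came from cells other than endothelium was not tested. The gene of the antibody's target, Cd93, was at 1530 and 1759 CPM with control IgG and 1716 and 1514 CPM with anti-CD93.

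The 39 genes spanned a wide range of levels. Per length, the mean over the 4 libraries ran from 0.740 RPKM for Fen1, the flap endonuclease, to 21.4 RPKM for Pcna, the sliding clamp. Pcna, Mcm3 (20.5 RPKM) and Mcm6 (17.8 RPKM) led, followed by Mcm4 (11.0 RPKM), Lig1 (10.9 RPKM) and Gins4 (9.83 RPKM), and 14 of the 39 had a mean over 5 RPKM. Neighbours in this order mostly overlapped between libraries: Pcna ranged from 20.5 to 23.96 RPKM and Mcm3 from 16.5 to 28.7 RPKM. The low value of Fen1 has a limit, since 78.8% of its exonic length also belongs to the gene Gm10143 on the other strand and featureCounts by default assigns no read that falls in 2 genes. The same holds for Gins2 (67.3% shared with Gse1) and Chaf1a (52.5% shared with Ubxn6), and 13 members in all share some exonic bases with another gene. Single members had between 18 and 1442 reads in a library.

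**Figure D1:**
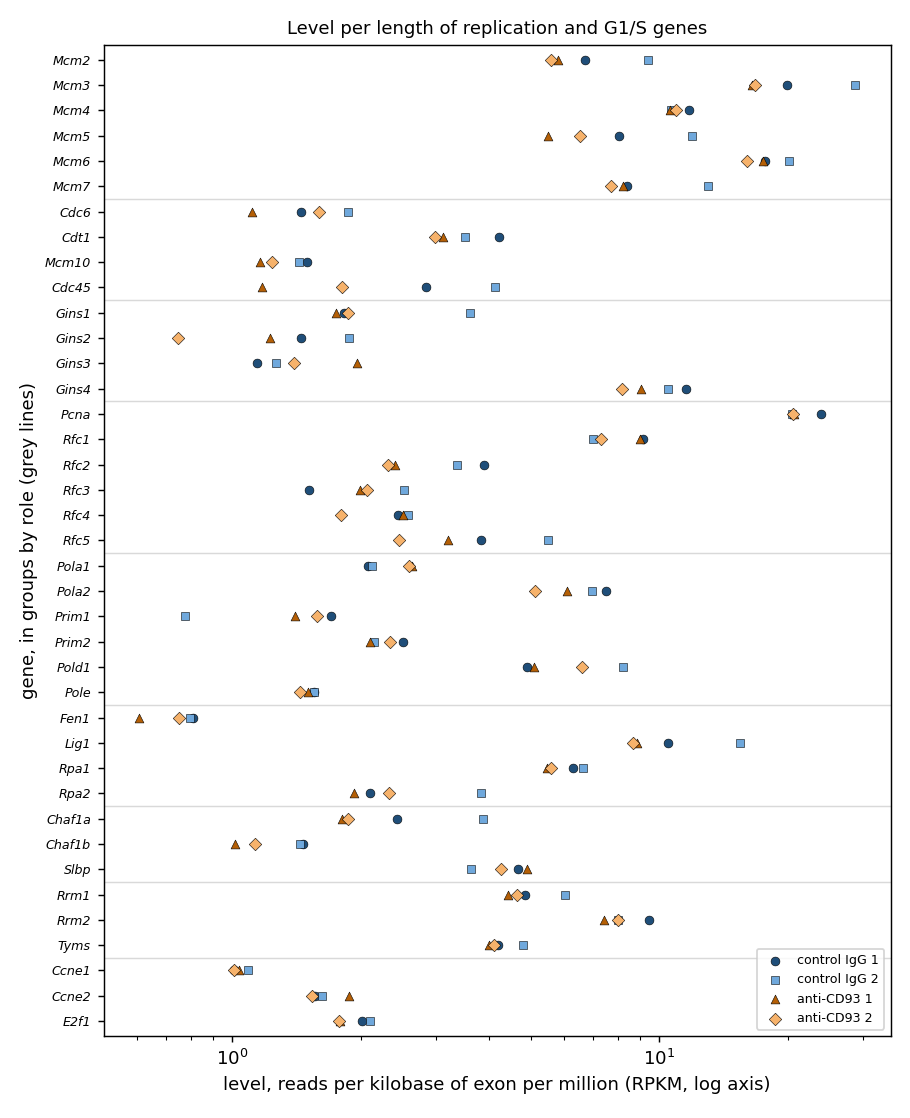
Level of each of the 39 genes in each library, in RPKM on a log axis, with 1 marker per library and grey lines between role groups. Pcna, Mcm3 and Mcm6 are highest and Fen1, at 0.740 RPKM on average, is lowest.

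With anti-CD93 most of these genes lay lower than with control IgG, but none passed the test. By edgeR's quasi-likelihood test, with p-values adjusted over all 16945 genes, 0 of the 39 had an adjusted p under 0.05, which was also the background (0% of all genes), and their adjusted p values ran from 0.812 to 0.993. DESeq2 and limma-voom called 0 of the 39 as well. At an unadjusted p under 0.05, 7 members were lower (Cdc45, Mcm5, Chaf1a, Rfc2, Rfc5, Mcm3 and Lig1) and 0 higher, against 2.5% of all genes lower and 1.99% higher. At that level limma-voom gave 7 members, all lower, against 2.35% of all genes. DESeq2 gave 5, all lower, against 1.6% of the 33419 genes it tested. Those include genes with too few reads for the other tests, so the 1.6% is not a like share. The fitted change was below 0 for 32 of 39 members, against 50.9% of all genes, with a median log2 fold change of -0.24, against -0.0092 over all genes tested. For 23 members both anti-CD93 libraries lay below both control libraries, or 59.0% of the list, where 19.7% of all genes did so. In the opposite direction, with both anti-CD93 libraries above both controls, there were 2 members, Gins3 and Pola1, against 20.1% of all genes. The members are read from the same 4 libraries, so these counts are a description and not 39 separate observations.

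Added up, the 39 genes reached 957.6 and 1101 CPM in the control libraries and 847 and 830.3 CPM in those from anti-CD93 treated mice. The sums do not overlap between the groups, and the control libraries differ from each other by more than the anti-CD93 libraries do. Control IgG replicate 2 was the highest library for 21 of the 39 genes, against 38.7% of all genes, and control IgG replicate 1 for 14; between the controls, replicate 2 was above replicate 1 for 24 members (50.8% of all genes). Anti-CD93 replicate 1 was highest for 4 (Gins3, Pola1, Slbp and Ccne2) and anti-CD93 replicate 2 for 0. The direction was seen against either control alone: both anti-CD93 libraries lay below control IgG replicate 1 for 28 of 39 members (35.3% of all genes) and below control IgG replicate 2 for 30 (43.2% of all genes).

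**Figure D2:**
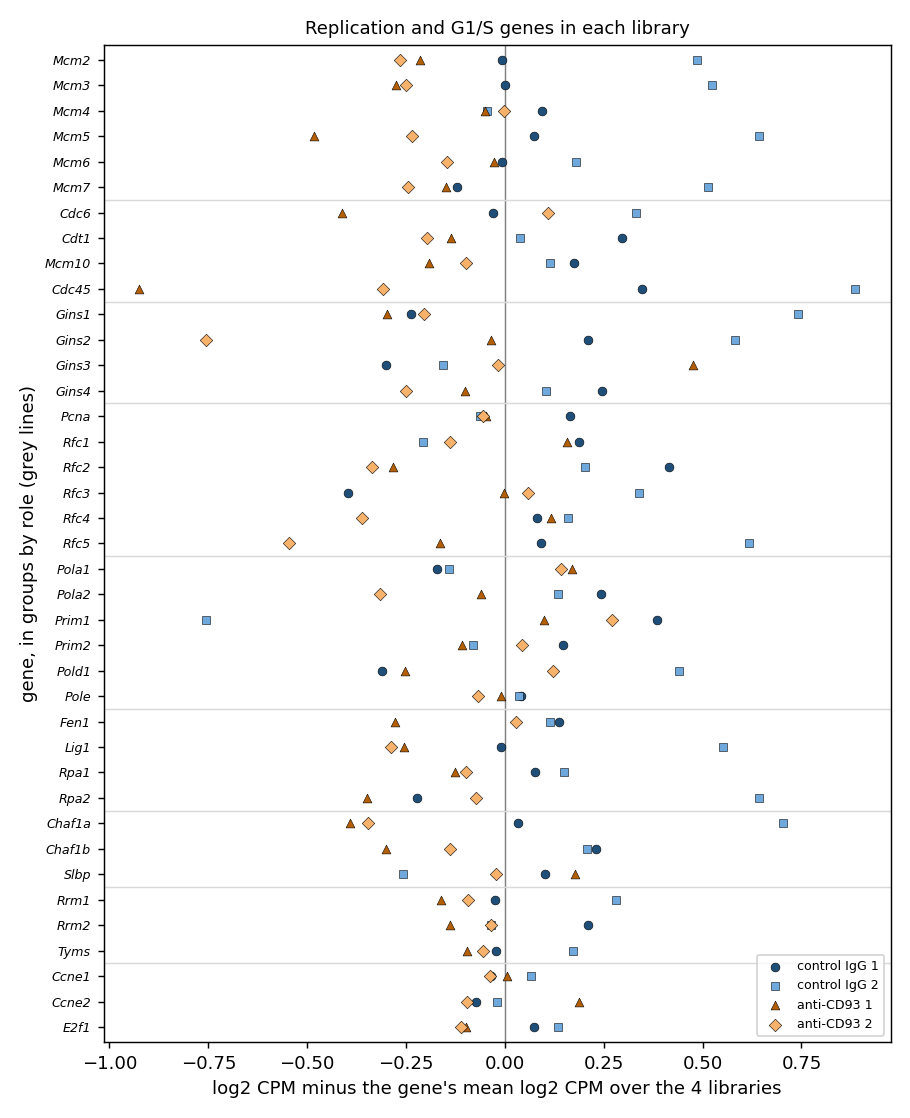
For each gene, the log2 CPM in each library minus the gene's mean log2 CPM over the 4 libraries, with circles and squares for the control libraries and triangles and diamonds for the anti-CD93 libraries. In 23 of 39 rows both anti-CD93 markers lie to the left of both control markers, and control IgG replicate 2 is the rightmost marker in 21.

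The MCM2 to MCM7 ring is the core of the helicase. All 6 of its genes had a fitted change below 0 (50.9% of all genes), with a median of -0.46. Mcm5 (chromosome 8, 75109569 to 75128439, GRCm38) was at 32.2 and 47.8 CPM with control IgG, replicates 1 and 2 in that order here and below, and at 21.9 and 26.01 CPM with anti-CD93. The groups did not overlap, and the log2 fold change was -0.74 (SE 0.25). Mcm3 (chromosome 1, 20802968 to 20820312) was at 74.9 and 107.7 CPM against 61.8 and 63.0 CPM, also without overlap (log2 fold change -0.55, SE 0.22). Mcm4 was flat by comparison, at 42.1 and 38.2 CPM with control IgG and 38.1 and 39.4 CPM after anti-CD93 (log2 fold change -0.053, SE 0.19). Mcm2 (-0.50), Mcm7 (-0.42) and Mcm6 (-0.17) also had both anti-CD93 libraries below both controls, for Mcm6 and Mcm7 by a small step from control IgG replicate 1: Mcm7 was at 37.1 CPM in that library and at 36.4 and 34.1 CPM with anti-CD93. Without overlap 5 of the 6 genes (83.3%) were thus lower, against 19.7% of all genes. In 5 of the 6 genes control IgG replicate 2 was the highest library, against 38.7% of all genes. Although the proteins form 1 ring, their RNA levels per length differed 2.98-fold, from 6.87 RPKM for Mcm2 to 20.5 RPKM for Mcm3. Without control IgG replicate 2 the median of the 6 was -0.18, and without control IgG replicate 1 it was -0.72.

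E2F factors bind a short GC-rich element near the start of many replication genes. The list was picked by name and not by promoter letters. Since E2F factors switch on many of its genes, a high share of matches was likely in advance. RefSeq promoter windows (GRCm38.p6, 250 bases before to 50 after the start) were found for 31 of the 39 genes and searched on both strands for TTTCGCGC, TTTGGCGC and TTTCCCGC, which can overlap each other. A match was present for 11 of the 31 genes (35.5%), against 3.95% of the 10978 tested genes with a window and 1 of 28 G2/M and mitosis genes (3.57%). The 11 were Cdc6, Cdt1, Gins3, Lig1, Mcm3, Mcm5, Mcm6, Mcm7, Pola1, Pold1 and Rfc3. CCAAT, the NF-Y element, was in the windows of 19 of the 31 genes (61.3%), against 42.5% of tested genes and 20 of 28 G2/M genes (71.4%). The 250 bases before the start are given for 3 MCM genes, for Pola1, which has a match but lay higher with anti-CD93, and for Cdc45, which had the lowest fold change and has no match. Capitals mark the matches in either orientation, and all sequences read 5′ to 3′ on the strand of the gene.
Mcm5, chr8:75109259-75109508, plus strand: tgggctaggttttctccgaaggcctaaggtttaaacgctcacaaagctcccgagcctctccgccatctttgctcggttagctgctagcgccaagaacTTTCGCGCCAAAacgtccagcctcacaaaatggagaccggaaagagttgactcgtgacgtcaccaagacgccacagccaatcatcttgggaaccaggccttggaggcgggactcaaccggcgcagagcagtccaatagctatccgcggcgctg
Mcm6, chr1:128359706-128359955, minus strand: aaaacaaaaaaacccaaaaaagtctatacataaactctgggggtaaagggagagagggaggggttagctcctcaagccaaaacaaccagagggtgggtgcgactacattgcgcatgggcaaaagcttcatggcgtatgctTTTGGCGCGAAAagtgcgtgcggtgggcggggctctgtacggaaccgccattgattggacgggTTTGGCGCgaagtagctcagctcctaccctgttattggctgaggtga
Mcm7, chr5:138171884-138172133, minus strand, the start with the higher coordinate: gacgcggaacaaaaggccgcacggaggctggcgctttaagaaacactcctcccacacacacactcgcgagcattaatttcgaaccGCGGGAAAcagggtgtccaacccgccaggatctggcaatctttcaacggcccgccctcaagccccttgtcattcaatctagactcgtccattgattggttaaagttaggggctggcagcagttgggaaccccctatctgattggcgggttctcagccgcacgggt
Pola1, chrX:93632156-93632405, minus strand: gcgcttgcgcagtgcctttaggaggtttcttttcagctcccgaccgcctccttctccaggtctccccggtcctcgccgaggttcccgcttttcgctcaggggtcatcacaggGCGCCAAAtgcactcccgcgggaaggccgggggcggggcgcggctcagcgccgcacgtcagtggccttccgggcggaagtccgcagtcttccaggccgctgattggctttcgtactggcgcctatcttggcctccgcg
Cdc45, chr16:18811973-18812222, minus strand: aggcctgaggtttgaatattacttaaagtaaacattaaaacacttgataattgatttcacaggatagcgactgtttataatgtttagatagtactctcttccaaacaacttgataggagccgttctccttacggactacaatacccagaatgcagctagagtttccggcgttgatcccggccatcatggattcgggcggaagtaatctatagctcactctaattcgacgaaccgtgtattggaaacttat
In Mcm5, matches begin 153 and 149 bases before the start and form 1 run in which elements on opposite strands overlap, and Mcm6 holds the same kind of run at 110 and 106 bases and a further match at 47 bases. The other Mcm7 start, also in RefSeq, has no match in its window. The fold changes of genes with and without a match overlapped: the 11 genes with one had a median log2 fold change of -0.29, ranging from -0.74 to 0.48, and the 20 without had -0.23, ranging from -1.23 to 0.25. No match says only that these letters are not in the window.

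The 4 loading and firing factors all had a fitted change below 0 (50.9% of all genes), and 3 of them (75%) were lower without overlap (19.7% of all genes). Cdc45 (chromosome 16, 18780447 to 18811987), which joins the ring to activate it, had the lowest fold change of the 39: it was at 9.95 and 14.5 CPM with control IgG and 4.12 and 6.32 CPM with anti-CD93, from 73 to 135 reads per library (log2 fold change -1.23, SE 0.35). The groups did not overlap, but the replicates within each group also lay apart. The adjusted p by edgeR was 0.812. Cdt1, a loading factor, was at 13.2 and 11.0 CPM against 9.77 and 9.37 CPM (log2 fold change -0.34, SE 0.27). Mcm10, which acts at helicase activation, was at 11.5 and 11.0 CPM against 8.93 and 9.52 CPM (log2 fold change -0.29, SE 0.26). For both of these genes the control libraries were close together and control IgG replicate 1 was the higher. Cdc6, the other loading factor, overlapped between the groups, with 7.59 and 9.74 CPM against 5.82 and 8.36 CPM (log2 fold change -0.29, SE 0.33).

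The 4 GINS subunits, which form 1 complex, lay in both directions. Gins2 was at 5.96 and 7.71 CPM with control IgG and 5.03 and 3.05 CPM after anti-CD93 (log2 fold change -0.75, SE 0.39), with the limit on shared exons given above. Gins4, the most abundant of the 4 per length, was at 15.6 and 14.1 CPM against 12.3 and 11.0 CPM (log2 fold change -0.35, SE 0.25), again without overlap. Gins3 lay on the other side, at 3.10 and 3.43 CPM with control IgG and 5.31 and 3.78 CPM after anti-CD93 (log2 fold change 0.48, SE 0.40), and this was the highest value of the list. Gins1 overlapped between the groups (log2 fold change -0.57, SE 0.47), and its value was -0.018 without control IgG replicate 2. Counts here were low, at 32 to 217 reads per gene and library.

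Among the clamp and its loader, 2 of the 6 genes (33.3%), both RFC subunits, were lower without overlap, against 19.7% of all genes. Rfc2 (chromosome 5, 134581366 to 134601805) was at 24.6 and 21.2 CPM with control IgG and 15.1 and 14.6 CPM after anti-CD93 (log2 fold change -0.62, SE 0.22). This gene did not depend on control IgG replicate 2, without which its value was -0.72. Rfc5 (chromosome 5, 117378103 to 117389047) was at 17.9 and 25.7 CPM against 15.0 and 11.5 CPM (log2 fold change -0.71, SE 0.28). Rfc1, the large subunit, was at 55.3 and 42.1 CPM against 54.2 and 44.1 CPM (log2 fold change 0.012, SE 0.22). Its libraries interleave, as did those of Rfc3 (0.017), Rfc4 (-0.22) and Pcna. Pcna itself was at 57.5 and 49.1 CPM with control IgG and 49.7 and 49.4 CPM after anti-CD93 (log2 fold change -0.11, SE 0.19), so the most abundant gene per length was among the least different.

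The polymerase and primase genes as a group lay close to the background, with a median of -0.075 and 4 of 6 below 0 (50.9% of all genes). Pola1 (chromosome X, 93304767 to 93632155), the catalytic subunit of polymerase alpha, was at 18.4 and 18.7 CPM with control IgG and 23.2 and 22.8 CPM after anti-CD93 (log2 fold change 0.31, SE 0.21). Its partner Pola2 was at 62.4 and 57.8 CPM against 50.5 and 42.4 CPM (log2 fold change -0.37, SE 0.19). The subunits of 1 enzyme thus stood in opposite directions, each without overlap, and neither passed the test. The replicates of Pola1 were close together, while the anti-CD93 libraries of Pola2 lay farther apart than its controls. Prim2, of the primase bound to them, was at 14.9 and 12.7 CPM against 12.5 and 13.9 CPM (log2 fold change -0.073, SE 0.25). Prim1, the catalytic primase subunit, had 28 reads in control IgG replicate 2 and 81 to 96 in the others, and its fold change of 0.25 was -0.20 without that library. Pold1 (-0.16) overlapped between groups, and Pole (-0.077), of the leading strand polymerase, was at 17.4 and 17.3 CPM against 16.8 and 16.1 CPM.

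On the lagging strand, LIG1 seals Okazaki fragments after FEN1 has trimmed them, and RPA coats the single-stranded DNA. Lig1 (chromosome 7, 13277283 to 13311433) was at 44.8 and 66.2 CPM with control IgG and 37.8 and 37.0 CPM after anti-CD93 (log2 fold change -0.57, SE 0.23). Rpa1 was at 35.1 and 36.9 CPM against 30.5 and 31.1 CPM (log2 fold change -0.22, SE 0.19). The control replicates of Rpa1 agree closely and both anti-CD93 libraries lie below them, while for Lig1 control IgG replicate 2 is far above the other control. Rpa2 overlapped, at 6.28 and 11.5 CPM against 5.76 and 6.98 CPM (log2 fold change -0.47, SE 0.37). Fen1, with 18 to 26 reads per library, was at 1.96 and 1.93 CPM against 1.47 and 1.82 CPM (log2 fold change -0.24, SE 0.52).

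New DNA needs new nucleosomes, and CHAF1A and CHAF1B are subunits of the chaperone CAF-1 that places histones behind the fork. Chaf1a (chromosome 17, 56040439 to 56072289) was at 21.5 and 34.3 CPM with control IgG and 16.0 and 16.6 CPM after anti-CD93 (log2 fold change -0.77, SE 0.27). Chaf1b was at 6.85 and 6.74 CPM against 4.75 and 5.30 CPM (log2 fold change -0.44, SE 0.32). Both genes had no overlap between groups, and Chaf1b had it with nearly equal controls. Slbp, whose protein binds the stem-loop of histone mRNA, overlapped and lay slightly higher, at 28.3 and 22.1 CPM against 29.8 and 25.9 CPM (log2 fold change 0.15, SE 0.22).

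Nucleotide supply genes differed little. Rrm1, the large subunit of ribonucleotide reductase, was at 53.5 and 66.2 CPM with control IgG and 48.7 and 51.1 CPM after anti-CD93 (log2 fold change -0.26, SE 0.20). Rrm2, the small subunit, was at 26.3 and 22.2 CPM against 20.6 and 22.2 CPM (log2 fold change -0.18, SE 0.22), so that control IgG replicate 2 and anti-CD93 replicate 2 were equal at this precision. Tyms, thymidylate synthase, was at 25.5 and 29.2 CPM against 24.3 and 25.0 CPM (log2 fold change -0.15, SE 0.21). All 3 are counted among the 23 genes without overlap, by small steps, where 19.7% of all genes were lower without overlap.

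The G1/S regulators had the median nearest to 0 of the 9 role groups. E2f1 was at 6.36 and 6.64 CPM with control IgG and 5.65 and 5.59 CPM after anti-CD93 (log2 fold change -0.21, SE 0.32). The cyclin E genes overlapped between the groups: Ccne2 was at 5.47 and 5.67 CPM against 6.55 and 5.38 CPM (log2 fold change 0.10, SE 0.33), and Ccne1 was at 2.69 and 2.89 CPM against 2.77 and 2.69 CPM (log2 fold change -0.031, SE 0.43). Their median was -0.031 over the 3 genes, and 0.019 without control IgG replicate 2. These genes had 27 to 116 reads per library.

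**Figure D3:**
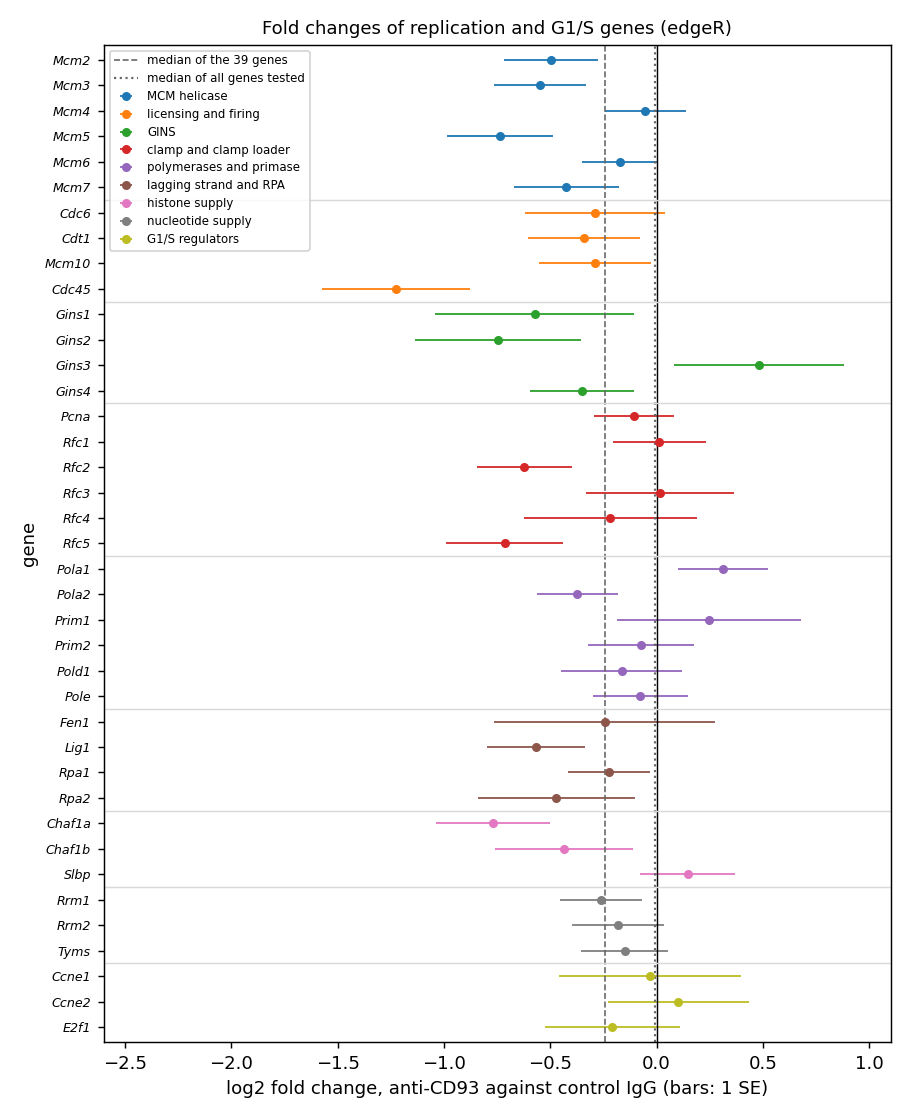
Log2 fold change, anti-CD93 against control IgG, of the 39 genes in role groups, with bars of 1 SE from edgeR. The dashed line marks their median of -0.24 and the dotted line that of all genes tested, -0.0092; Cdc45 is lowest and Gins3 highest.

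How far these values rest on 1 control library was examined by leaving each control out. Without control IgG replicate 2, 32 of 39 members still had a fitted change below 0 (49.4% of all genes), the median was -0.18, and 5 members (Mcm3, Mcm5, Cdc45, Rfc2 and Pola2) were lower at an unadjusted p under 0.05, against 3.33% of all genes. The fold change of 18 members shrank by over 1.5 times or turned sign, 6 of them turning sign, and that of 5 grew by over 1.5 times. Mcm5 went to -0.43, Chaf1a to -0.40, Lig1 to -0.26 and Rfc5 to -0.43, while Cdc45 was at -0.94. Without control IgG replicate 1, when the library that stands apart is the only control, 30 of 39 were below 0 (49.9% of all genes) with a median of -0.26. In that fit edgeR called 10 members lower and 0 higher (Mcm2, Mcm3, Mcm5, Mcm7, Cdc45, Rfc5, Lig1, Rpa2, Chaf1a and Rrm1), where it called 12.8% of all genes lower; the lone control is assumed there to vary like the other libraries. Without anti-CD93 replicate 1 or 2, 32 and 33 members were below 0 (50.5% and 50.8% of all genes). In those fits and in the fit without control IgG replicate 2, edgeR called 0 members, where it called 0%, 0.0059% and 0.0177% of all genes lower in that order. Across all fits, 26 members were below 0 in every one in which they were tested.

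**Figure D4:**
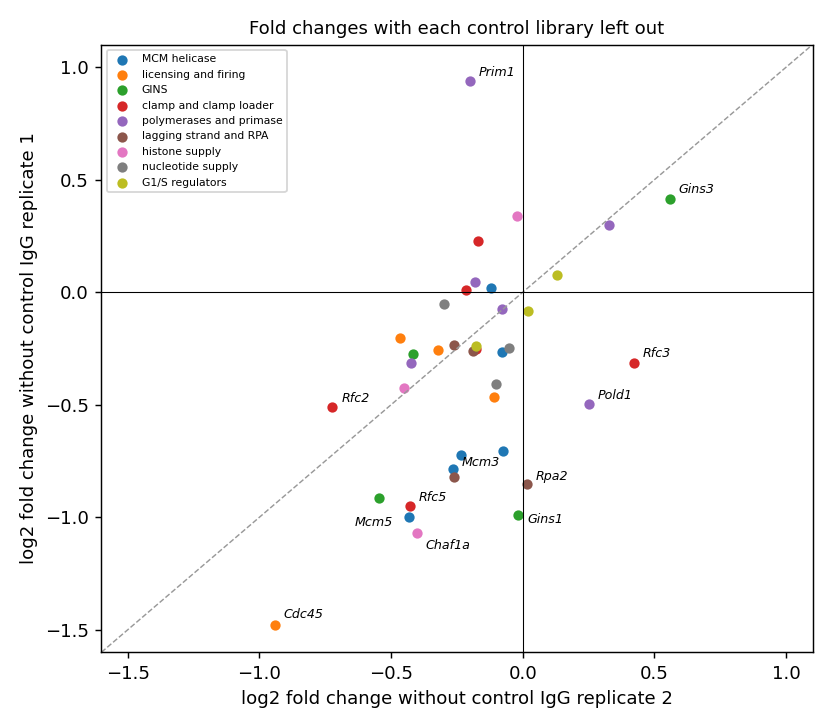
Log2 fold change of each of the 39 genes without control IgG replicate 2 (x axis) and without control IgG replicate 1 (y axis), with the dashed line of equality. In the lower left, 26 genes are below 0 in both, and Cdc45, at -0.94 and -1.48, is farthest from 0 in both.

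Other cell cycle genes were counted in the same way, from lists that do not hold the 39; none of them passed the test, and the difference between lists was not tested. Among 43 other replication factors (origin recognition, fork protection, accessory polymerase subunits, chromatin replication) 27 were below 0, with a median of -0.11. Without overlap 14 (32.6%) were lower, against 19.7% of all genes, and 7 higher, against 20.1% of all genes. Timeless (chromosome 10, 128232065 to 128252941), a fork protection gene, was at 149 and 194 CPM with control IgG and 118 and 119 CPM after anti-CD93 (log2 fold change -0.53, SE 0.19). Mcmbp (chromosome 7, 128696441 to 128740495), whose protein binds MCM subunits, was at 37.9 and 36.9 CPM against 49.1 and 48.5 CPM (log2 fold change 0.38, SE 0.18). Among 19 other nucleotide synthesis genes 12 (63.2%) were below 0, against 50.9% of all genes, with a median of -0.11. Without overlap 7 (36.8%) were lower and 0 higher, against 19.7% and 20.1% of all genes. On the higher side of that list Rrm2b, the reductase subunit that also serves cells out of S phase, was at 11.6 and 7.49 CPM against 12.8 and 11.5 CPM.

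The 30 other G1/S control genes were split evenly, 15 below and 15 above 0, with a median of 0.027, and without overlap 10 were higher (20.1% of all genes) and 5 lower (19.7% of all genes). Ccnd2 (chromosome 6, 127125162 to 127152193), cyclin D2, was at 55.7 and 50.1 CPM with control IgG and 103 and 77.4 CPM after anti-CD93 (log2 fold change 0.77, SE 0.21; adjusted p = 0.812 by edgeR). The direction is the opposite of that of most replication genes, and no library of one group overlapped the other. E2f8 (chromosome 7, 48866429 to 48881596), a repressor member of the E2F family, was at 10.2 and 10.1 CPM against 6.16 and 6.98 CPM (log2 fold change -0.63, SE 0.29). Of the 34 G2/M and mitosis genes 20 were below 0, with a median of -0.21. Without overlap 14 (41.2%) were lower and 5 higher, against 19.7% and 20.1% of all genes. Cdc20 (chromosome 4, 118432901 to 118437352), an activator of the anaphase-promoting complex, was at 14.1 and 20.1 CPM against 10.6 and 10.1 CPM, and Hmmr at 16.3 and 14.4 CPM against 19.5 and 19.0 CPM. Summed, the G2/M list differed little, at 1115 and 1184 CPM with control IgG and 1102 and 1087 CPM with anti-CD93, a narrower gap than that of the 39 replication genes.

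Replication-dependent histone genes, whose RNA is made in S phase, had a fitted change below 0 in 44 of 45 tested genes. Their median of -0.90 was -0.32 without control IgG replicate 2. Without overlap 26 (57.8%) were lower and 0 higher, against 19.7% and 20.1% of all genes. The list summed to 733 and 1388 CPM with control IgG and 548 and 674 CPM with anti-CD93. Control IgG replicate 2 was the highest library for 39 of the 45. H3c6 (chromosome 13, 23561534 to 23562369) was at 23.2 and 42.7 CPM against 12.2 and 14.5 CPM (log2 fold change -1.30, SE 0.31). Its adjusted p by edgeR was 0.812, and 0.0230 with the replicate number as a block and 0.00535 with no count filter. By DESeq2 its adjusted p was 0.763 and by limma-voom 0.766. Its log2 fold change was -0.80 without control IgG replicate 2 and -1.68 without control IgG replicate 1. The 1 histone gene above 0, H2ac11, had 6 to 16 reads per library. Histone copies share sequence, so single copies are uncertain. Between the control libraries the histone genes differed by a median of 0.93 on the log2 scale and the 39 replication genes by 0.24, against 0.41 for all genes tested. Between the anti-CD93 libraries the medians were 0.32, 0.10 and 0.17.

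**Figure D5:**
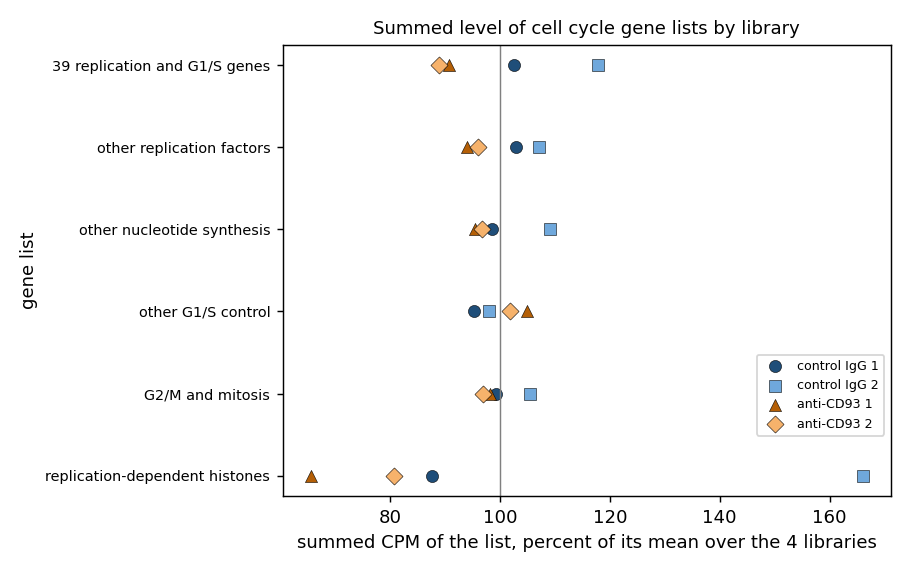
Summed CPM of the 39 genes and of 5 related lists in each library, as a percent of the list's mean over the 4 libraries. The 39 genes stand at 103% and 118% in the control libraries and 90.7% and 88.9% with anti-CD93; the histone list reaches 166% in control IgG replicate 2.

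No marker of a cell type passed the test. Of the 12 endothelial markers 11 had a fitted change below 0, with a median of -0.18, and -0.048 without control IgG replicate 2. Without overlap 7 (58.3%) were lower and 0 higher, against 19.7% and 20.1% of all genes. The share lower was like that of the 39 replication genes. Of the 10 tumour epithelial markers 3 were below 0, with a median of 0.12, and 0.39 without control IgG replicate 2, the opposite direction to the replication genes. Without overlap 0 were lower and 3 (30%) higher, against 19.7% and 20.1% of all genes. Epcam was at 21.7 and 23.4 CPM with control IgG and 34.1 and 41.1 CPM after anti-CD93 (log2 fold change 0.74, SE 0.21). Cdh1 was at 216 and 210 CPM against 351 and 290 CPM (log2 fold change 0.59, SE 0.18). The pericyte and fibroblast markers had a median of -0.13 with 6 of 9 below 0, and 0.064 without control IgG replicate 2. Without overlap 2 (22.2%) of them were lower and 0 higher. Of the 6 leukocyte markers with enough reads to be tested 3 were below 0, with a median of 0.044. Without overlap 2 (33.3%) of these were lower and 1 higher. The part of these shifts in the replication gene values was not tested.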

How the data were processed

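RNA of 4 libraries was compared, 2 with control IgG and 2 with anti-CD93, made with a stranded total RNA kit per the labels' protocols. The deposited values are raw counts, made by the authors with featureCounts 2.0.1 on GENCODE vM25 (GRCm38), summed by gene name, per the file headers. The recorded command has no paired-end or strand option, so mates were counted singly and antisense reads cannot be told apart. The submitters' processing notes name STAR 2.7.5b and, for later steps, DESeq2 1.28.1. The other table, although called normalized, repeats those counts (0 of 221468 cells differed). Exonic lengths are those in the authors' table.

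Genes passing edgeR's expression filter (minimum count 10), 16945 in all, were scaled by TMM, and CPM and RPKM were computed. Groups were compared with edgeR 4.0.16 (robust quasi-likelihood test, R 4.3.3, group as the only term), calling a Benjamini-Hochberg adjusted p under 0.05 over all genes tested. The fit was tested on simulated data. DESeq2 1.42.0, limma-voom (limma 3.58.1), other scalings and filters, a replicate block and each library left out were alternatives. Members and lists were chosen with earlier results of these data known. Full values are given, per role group, for the members with the 2 smallest p and the one with the smallest absolute fold change, and per related list for the gene with the smallest p in each direction. The result for 1 such gene is not reported here. Promoters are from RefSeq, GRCm38.p6. Depth and 2 libraries per group limit precision.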

Additional observations from a re-analysis of the deposited data

How the results depend on the processing

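The 39 replication genes kept a median log2 fold change below 0 and 30 to 33 genes below 0 in each leave-one-out fit, with the median at -0.28 to -0.18; with no count filter the median was -0.20. Members called ran from 0 to 10 when 1 library was left out, the 10 without control IgG replicate 1, and were 0 under the other scalings, filters and tools. Over all genes edgeR called 0, against 48 with no count filter, 5 by DESeq2, and 0 to 4549 with 1 library left out. With 1 library left out the medians of the related lists ran from -0.16 to -0.046 (other replication factors), -0.28 to -0.061 (nucleotide synthesis), 0.039 to 0.14 (G1/S control), -0.21 to -0.092 (G2/M) and -1.35 to -0.32 (histones). Other replication factors were at -0.058 with no filter and -0.082 at a minimum count of 50, and G1/S control genes at 0.075 with no filter and 0.041 by DESeq2. The sign of some genes near 0 turned. With no filter Ccne1 was at 0.017 and Cd93 at 0.025. With 1 library left out the range was -0.12 to 0.019 for Mcm4, -0.22 to 0.012 for Pcna, -0.17 to 0.23 for Rfc1, -0.31 to 0.42 for Rfc3, -0.20 to 0.94 for Prim1, -0.18 to 0.047 for Prim2, -0.50 to 0.25 for Pold1, -0.85 to 0.014 for Rpa2, -0.020 to 0.34 for Slbp, -0.082 to 0.019 for Ccne1, -0.043 to 0.23 for Ccne2, -0.13 to 0.35 for H2ac11, -0.12 to 0.077 for Cd93 and -0.58 to 0.66 for Ptprc. The causes were not tested. Same-numbered libraries did not deviate together (r = -0.016 across 16945 genes). This cannot show whether they were paired, since it compares a single deviation per group. With the replicate block edgeR called 14 genes and 0 members, and the members' median was -0.25. The E2F-type match count was 8 of 31 genes without TTTCCCGC.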
